A study of Mus musculus with 4 samples.

Results

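Desmosomes are the spot-like junctions that hold neighbouring keratinocytes together. Their outer parts are cadherins of 2 kinds, the desmogleins and the desmocollins, which bind across the gap between cells and are tied to the keratin filaments through plaque proteins inside the cell. Stratified epithelia use different members at different depths, and antibodies against desmoglein 3 or desmoglein 1 cause pemphigus, in which the mouth and the skin are affected differently. The 8 desmosomal cadherins of the panel, taken as a gene family by name, were the desmogleins *Dsg1a*, *Dsg1b*, *Dsg2*, *Dsg3* and *Dsg4* and the desmocollins *Dsc1*, *Dsc2* and *Dsc3*, out of 328 genes measured. Plaque genes were not analysed here. *Dsg1a* and *Dsg1b* are close copies of each other, and how well their probes tell them apart is not known, so that their split is given as uncertain throughout.

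Xenium counts single transcripts at their positions in thin tissue, using a probe panel set in advance, and 4 such slides were analysed. The female and the male slide of unwounded dorsal skin and the slide of male dorsal skin on day 4 after wounding carried both Control and PITX1+ mice, and the buccal slide carried buccal mucosa of Control mice of both sexes. All skin came from littermates with the TRE-*Pitx1* and *Krt5*-rtTA transgenes, in which doxycycline switches on the transcription factor *Pitx1* from the promoter of a basal keratin, and Control mice had the same transgenes without doxycycline. The labels give treatments as Vehicle and Doxycycline for a whole slide, not for a section, so sections were separated by position and assigned to Control or PITX1+ by their order on the slide, and "PITX1+" below means sections so assigned. This gave 3 Control sections (Control 1 and 2 on the female slide, Control 3 on the male slide), 4 PITX1+ sections (PITX1+ 1 and 2 from the female slide, PITX1+ 3 and 4 from the male), 7 buccal sections, 1 Control wound and 2 PITX1+ wounds. The labels do not say which sections come from separate mice, so p-values measure the spread between sections. Sections held 136365 to 5581930 transcripts after those scoring under 20 for quality were left out, and the Control sections, with 474847 to 749248, were the shallowest of the skin.

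*Pitx1* itself checked the assignment. In keratinocyte-like cells, which are the cells of clusters that carry keratinocyte markers, its level was 0.0609 and 0.0530 transcripts per 1000 panel transcripts in Control 1 and 2, 0.0440 and 0.0796 in PITX1+ 1 and 2, 0.0138 in Control 3, and 1.07 and 0.870 in PITX1+ 3 and 4. On the female slide, therefore, the gene did not separate the sections assigned to PITX1+ from Control, which goes against the assignment there, while on the male slide it did. Over both slides edgeR's test of *Pitx1*, with the slide as covariate, gave 1.75 ± 0.99 (SE, log2) and an adjusted p of 0.195. As another check, cells with at least 3 genes detected were counted (in Control 3, 16926 of 18724 cells). That number, in each unwounded skin section, lay within 0.4928% of a total that the study lists for the same condition. It lay at least 32.1% from any total of the other condition. *Pitx1* ranged from 0.737 to 1.26 in the 6 buccal sections with keratinocyte-like cells (Buccal 3 had none), and was 0.0515 in the Control wound and 0.644 and 0.327 in the PITX1+ wounds. Every direction below that rests on the female slide is a difference between sections assigned by position, without a rise of *Pitx1* there.

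The desmosomal cadherins were transcripts of keratinocytes. Keratinocyte-like cells held 98.3% of *Dsc1*, 97.6% of *Dsg1a*, 96.6% of *Dsg3*, 95.6% of *Dsg1b*, 94.9% of *Dsc2* and *Dsc3*, 94.3% of *Dsg4* and 83.5% of *Dsg2* transcripts in cells over all slides. *Dsg2*, the desmoglein of simple as well as stratified epithelia, differed from the rest in that 8.11% of its transcripts lay in salivary-like cells of the buccal slide. In the 2624 salivary-like cells of Buccal 6 *Dsg2* stood at 11.2 per 1000 and *Dsc2* at 2.74, while *Dsg1a*, *Dsg1b*, *Dsg3* and *Dsc1* had 3 or 4 transcripts each. Sebaceous-like cells carried *Dsg1b*, *Dsc2* and *Dsc3*, at means of 7.22 ± 4.44, 3.85 ± 1.91 and 5.87 ± 4.31 per 1000 in Control skin (SD, n = 3), with *Dsg3* at 0.292 ± 0.198.

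Cells of other classes had low levels that depended on where they lay. In fibroblast-, immune-, vascular- and other non-epithelial cells within 10 µm of a keratinocyte-like cell, the level of *Dsc3* averaged 1.97 ± 0.607 per 1000, against 0.121 ± 0.103 in such cells over 50 µm away (SD, n = 16 sections). *Dsc1*, *Dsc3*, *Dsg1b* and *Dsg3* were higher near than far in 16 of 16 sections, *Dsg1a* in 15, *Dsc2* in 14, *Dsg2* in 12 and *Dsg4* in 6. Whether these are transcripts of neighbouring keratinocytes given to the wrong cell was not tested. The far values, for which the means of the 8 genes lay between 0.0652 and 0.157 per 1000, are the background against which levels in keratinocytes can be read.

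Across the 45 clusters of all cells, made without the 8 genes, the genes most like each member were found by Pearson correlation of log2 CPM. This is a description over clusters that share slides. Most of the clusters were not keratinocyte-like, so r also reflects the difference between keratinocytes and other cells. *Dsg1a*, *Dsg1b* and *Dsc1* were most like each other (r = 0.953 to 0.960) and then like *Grhl3* or *Efna3*. *Dsg3* and *Dsc3* were most like the basal keratin gene *Krt5* (r = 0.957 and 0.944) and each other (0.942). *Dsc2* was most like *Dsg3* (0.861) and *Krt6a* (0.816), the keratin of activated and oral keratinocytes. *Dsg2* was most like the P-cadherin gene *Cdh3* (0.913) with *Sox9* and *Fzd5*, and *Dsg4* like *Krtap17-1* (0.946), a hair shaft gene, with *Shh* and *Efna2*.

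Levels also differed between kinds of keratinocyte. Keratinocyte-like cells were split into kinds by markers, again without the 8 genes. The split was made on each slide by itself, so a kind of the same name may hold different cells on different slides. Clusters without enough markers stayed unnamed and are left out of statements on the highest or lowest kind. The values by kind are descriptions with no test, in transcripts per 1000 panel transcripts of the kind. Levels are compared for a gene between kinds, never between genes, since every gene has its own probes. The plot of levels by kind shows that no kind was high in all members.

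**Figure D1:**
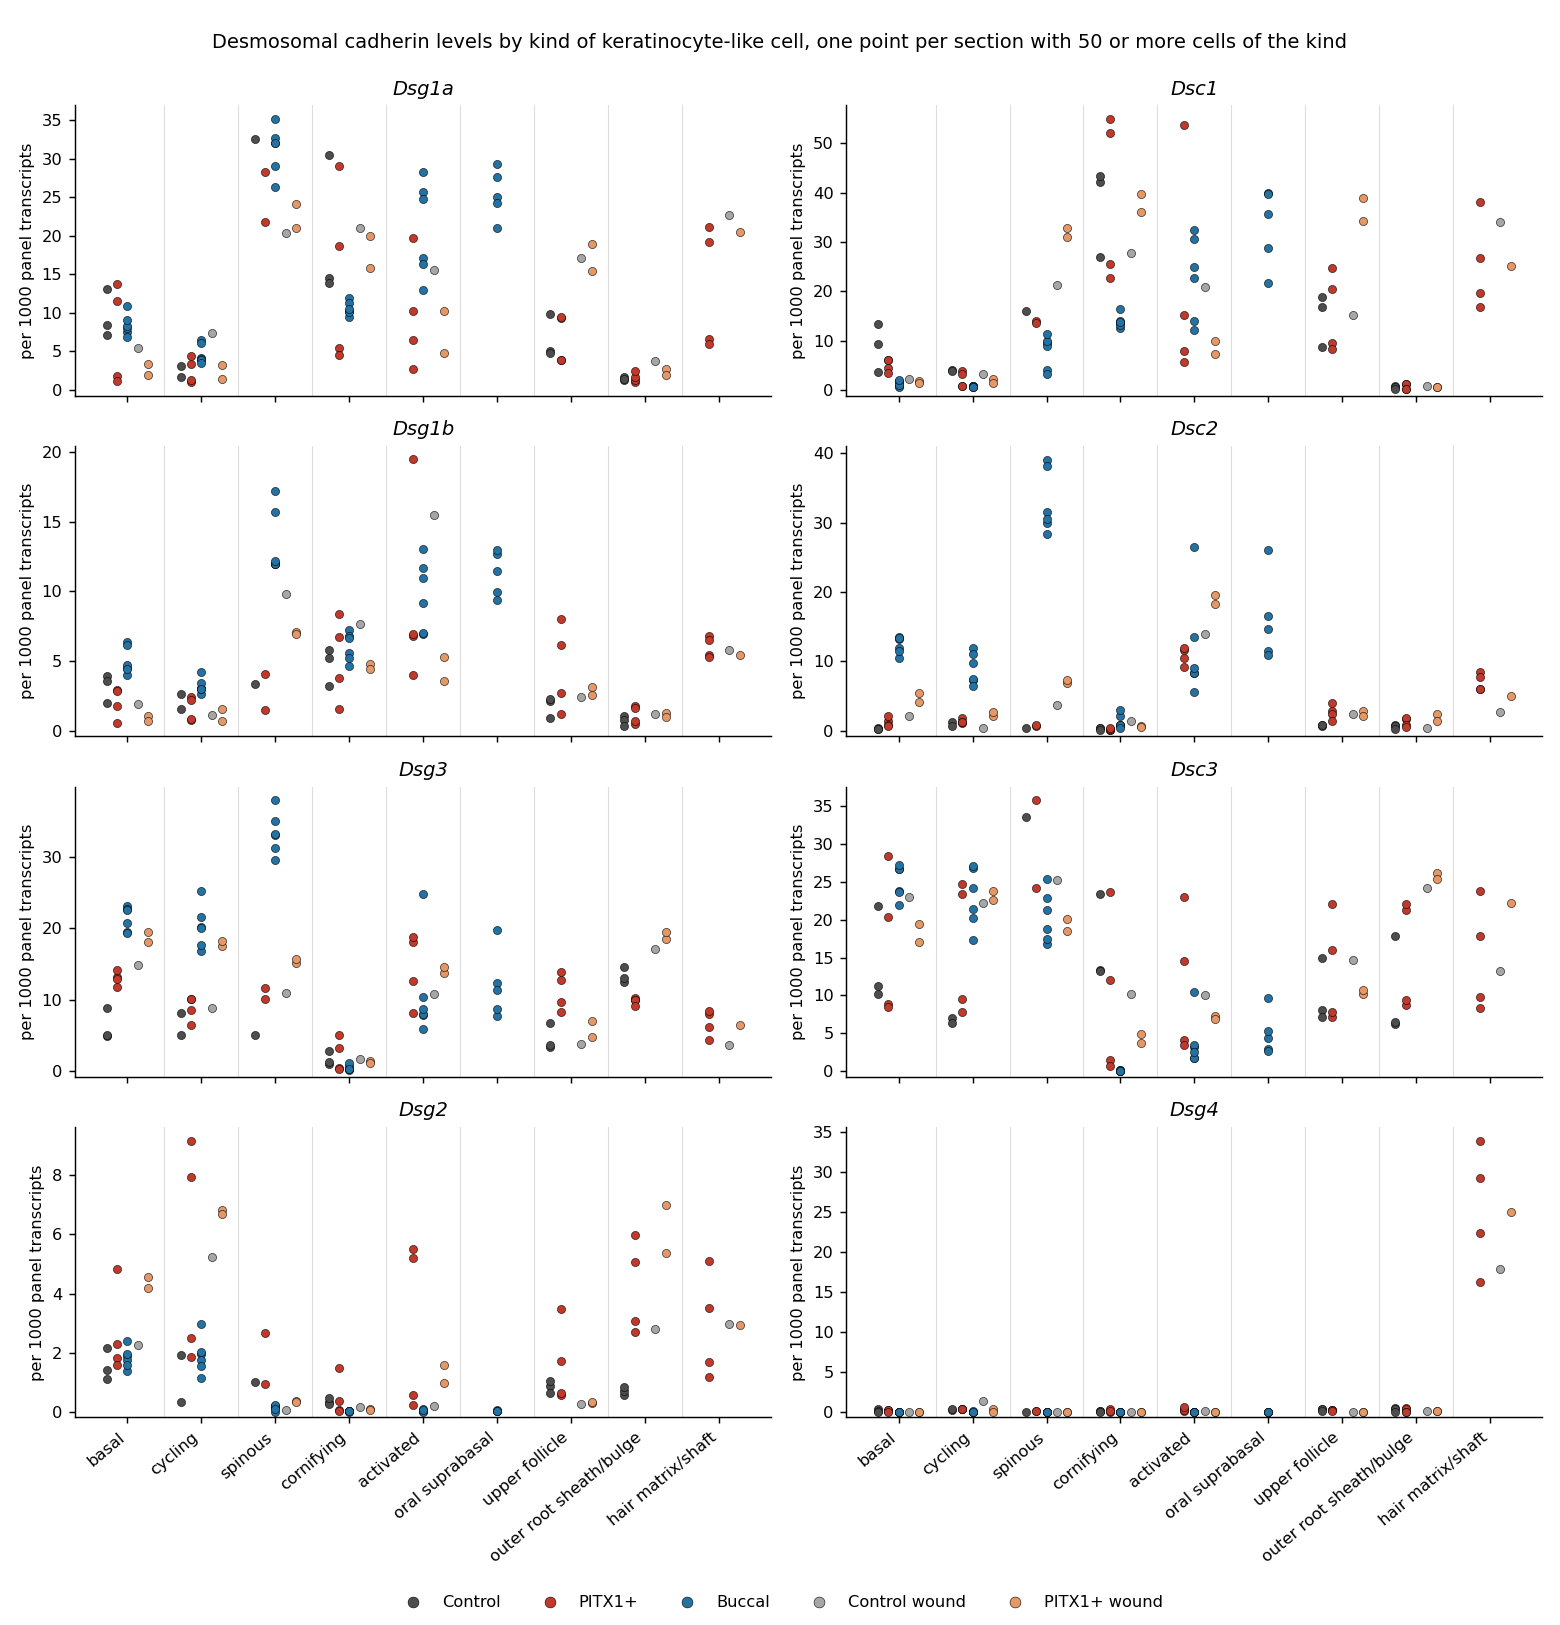
Level of each desmosomal cadherin (y axis, transcripts per 1000 panel transcripts) in each kind of keratinocyte-like cell (x axis), with a point for each section that had at least 50 cells of the kind, coloured by group. *Dsg4* was found in hair matrix and shaft-like cells, *Dsc1* was lowest in outer root sheath and bulge-like cells in 10 of 10 skin sections, and *Dsc2* was highest in spinous-like cells of the buccal mucosa.

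*Dsg1a*, a desmoglein of the upper layers, was, among the named kinds, highest in spinous-like cells of all 6 buccal sections, at 26.3 to 35.2 per 1000 with a mean of 31.2 ± 3.12, and lowest in cycling-like cells, at 4.68 ± 1.26. An unnamed buccal cluster with *Krt23* among its 3 leading genes held 37.3. In skin it was lowest in outer root sheath and bulge-like cells in 7 of 10 sections, at 1.44 ± 0.189 in Control (n = 3) and 1.65 ± 0.614 in PITX1+ (n = 4). Spinous-like cells, named in skin on the male and the wound slide, stood at 32.5 in Control 3, at 21.8 and 28.3 in PITX1+ 3 and 4, at 20.4 in the Control wound and at 24.1 and 21.1 in the PITX1+ wounds, so that PITX1+ 3 and the 3 wounds lay below the range of the buccal sections. *Dsg1b* had the same highest and lowest kind in all 6 buccal sections, with spinous-like cells at 13.5 ± 2.33 and cycling-like cells at 3.21 ± 0.560.

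*Dsg3*, the desmoglein of the lower layers in skin and of most of the thickness of oral epithelium, averaged 33.4 ± 2.91 in buccal spinous-like cells (29.6 to 38.0 in the 6 sections). It averaged 21.4 ± 1.70 in buccal basal-like cells, a median of 11.4 (7.78 to 19.7, n = 5) in oral suprabasal-like cells and 0.498 ± 0.339 in cornifying-like cells. The ranges of basal-like and cycling-like cells overlapped, those of spinous- and basal-like cells did not. In skin *Dsg3* was 13.4 ± 1.11 in Control outer root sheath and bulge-like cells, 6.26 ± 2.19 in Control basal-like cells and 1.66 ± 0.9851 in Control cornifying-like cells.

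Among the named kinds, *Dsg2* was highest in cycling-, outer root sheath and bulge- or basal-like cells in 10 of 10 skin sections and 6 of 6 buccal sections. Buccal basal-like and cycling-like cells held 1.82 ± 0.352 and 1.89 ± 0.615 per 1000, and the buccal spinous-like cells 0.141 ± 0.0856, within the range of non-epithelial cells far from keratinocytes (0 to 0.277). Its highest buccal cluster, of 427 cells, led by *Tnc* and *Krt7*, was unnamed and held 6.29. *Dsg4*, the desmoglein of the hair shaft, was at 34.0, 29.3, 22.5 and 16.3 in the hair matrix and shaft-like cells of PITX1+ 1 to 4, and it was 1.35 or lower in every other kind of every skin section.

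The hair cells were themselves split. A cluster led by *Lrrc15*, with *Mt4* among its 3 leading genes, had the highest *Dsg4* on each skin slide, at 92.6 and 90.0 per 1000 in PITX1+ 1 and 2, 56.5 and 55.0 in PITX1+ 3 and 4, and 41.5 and 62.4 in the Control wound and PITX1+ wound 1. *Dsc1* peaked in different hair clusters, led by *Tgfa*, *Wnt5a* and *Krt23* on the female slide (79.4), by *Cnfn*, *Lrrc15* and *Tgfa* on the male slide (41.8) and by *Lrrc15*, *Wnt5a* and *Dlx3* on the wound slide (53.9). These clusters were singled out as those with the highest level of the member on their slide. On the female slide the *Dsg4*-rich hair cluster also had the highest *Dsc2* of its slide, at 17.9.

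Among the desmocollins, *Dsc3*, the desmocollin of basal and lower layers, averaged 25.03 ± 2.18 in buccal basal-like cells, 22.8 ± 3.86 in cycling-like cells and 20.4 ± 3.37 in spinous-like cells, 3 neighbours whose sections overlapped. It was at 5.01 ± 2.83 in oral suprabasal-like cells and at 0.0702 ± 0.0415 in buccal cornifying-like cells. In Control skin, cornifying-like cells held 16.7 ± 5.85, a difference between tissues that was not tested in this kind. The kind pools clusters, and a female one of 1919 cells was led by *Krt77*, *Flg2* and *Rxra*. In PITX1+ 1 and 2 cornifying-like cells held 1.44 and 0.667, and in PITX1+ 3 they held 12.1. The cells compared under this name may therefore differ in more than tissue. Among the named kinds of skin, *Dsc3* was highest in spinous-like cells in 4 of 10 sections and in basal-like cells in 1. Cornifying-like cells were highest in 2, Control 1 and 2 (13.3 in each), and lowest in 5. *Dsc1*, the desmocollin of the uppermost layers, ran opposite to buccal *Dsc3*. It went from 1.30 ± 0.564 in buccal basal-like cells to 33.1 ± 7.79 in oral suprabasal-like cells and 13.9 ± 1.32 in cornifying-like ones. In skin *Dsc1* went from 0.633 ± 0.308 in Control outer root sheath and bulge-like cells to 37.5 ± 9.17 in Control cornifying-like cells.

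*Dsc2*, a desmocollin found in most epithelia and in the middle of stratified ones, divided the tissues. It averaged 32.9 ± 4.55 in buccal spinous-like cells, 15.9 ± 6.08 in oral suprabasal-like cells, 12.3 ± 1.22 in basal-like cells and 1.32 ± 0.972 in cornifying-like cells. In Control skin no kind of keratinocyte-like cell exceeded a mean of 0.917 per 1000, below the 3.85 of sebaceous-like cells. In PITX1+ skin the activated-like cells, whose markers include *Krt6a* and *Krt16*, held 11.6, 9.18, 11.9 and 10.5 in PITX1+ 1 to 4, a narrow range over both slides, while cornifying-like cells held 0.189 ± 0.0990. The unwounded Control sections had at most 1 activated-like cell each and give no value for this kind.

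The layers of the buccal epithelium were also read from position, without the kinds of keratinocyte. For every keratinocyte-like cell the distance to the nearest non-epithelial cell was taken as its depth. Non-epithelial cells were named by their clusters and include immune-like cells. Keratinocytes beside any immune-like cell within the epithelium therefore count as deep. Shares within the desmoglein or the desmocollin transcripts were used, which do not depend on the number of transcripts in a cell. The size of a share depends on the probes, so only its change with depth is read. *Dsc3* made up 66.2 ± 2.53% of desmocollin transcripts within 10 µm, 22.2 ± 4.41% at 20 to 30 µm and 4.53 ± 3.27% at 40 to 60 µm (SD, n = 6 sections). *Dsc1* went from 4.39 ± 1.99% to 36.0 ± 10.4% and 72.7 ± 13.1% over the same steps. *Dsc2* had a middle maximum, with 29.4 ± 4.18%, 41.8 ± 7.48% and 22.8 ± 10.4%, and the sections ranged from 32.0 to 49.2% at 20 to 30 µm.

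**Figure D2:**
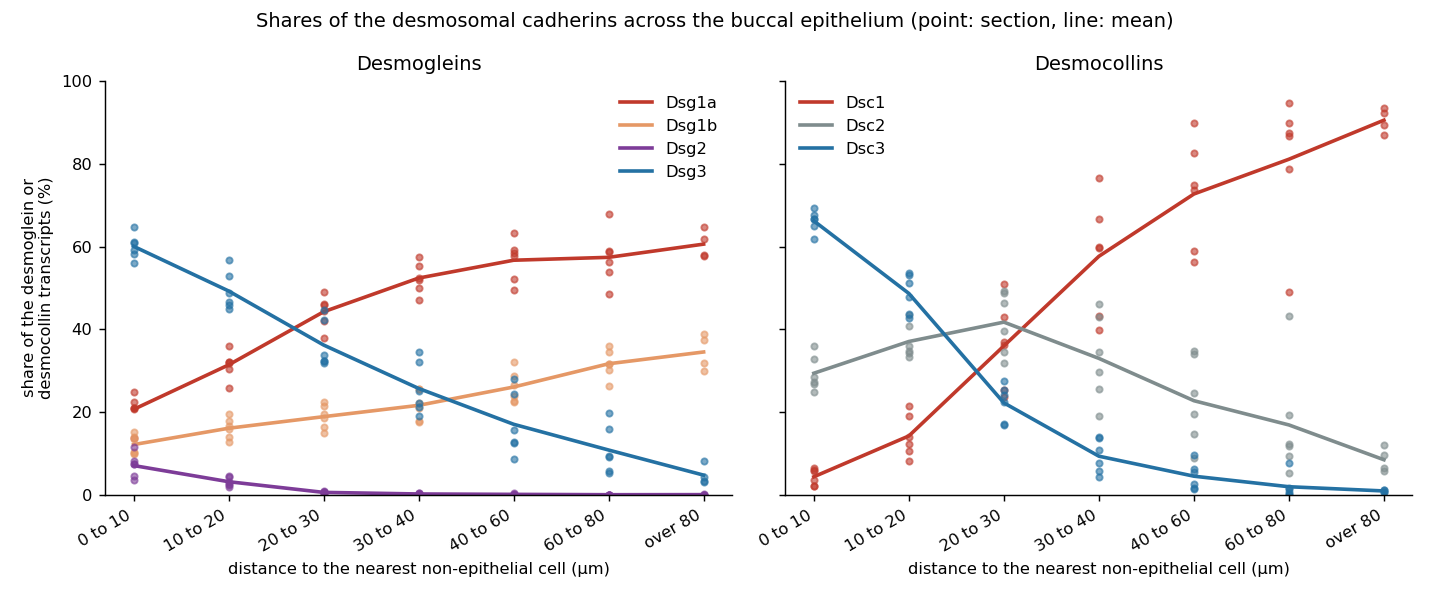
Share of each member in the desmoglein (left) or desmocollin (right) transcripts of keratinocyte-like cells, in percent (y axis), against the distance of the cell to the nearest non-epithelial cell in µm (x axis, 7 bins of unequal width). Points are the buccal sections (6 per bin, 4 in the last) and lines join their means. The shares of *Dsc3* and *Dsg3* fall and those of *Dsc1* and *Dsg1a* rise with distance, and where lines cross depends on the probes.

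The desmogleins changed over along the same axis. *Dsg3* made up 60.1 ± 2.97% of desmoglein transcripts within 10 µm and 17.1 ± 7.58% at 40 to 60 µm, *Dsg1a* 20.7 ± 3.72% and 56.7 ± 5.03%, and *Dsg1b* 12.2 ± 2.31% and 26.1 ± 3.80%. The ranges of the innermost and the 40 to 60 µm bins did not overlap for any of these. *Dsg2* went from 7.11 ± 2.78% within 10 µm to 0.615 ± 0.276% at 20 to 30 µm.

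**Figure D3:**
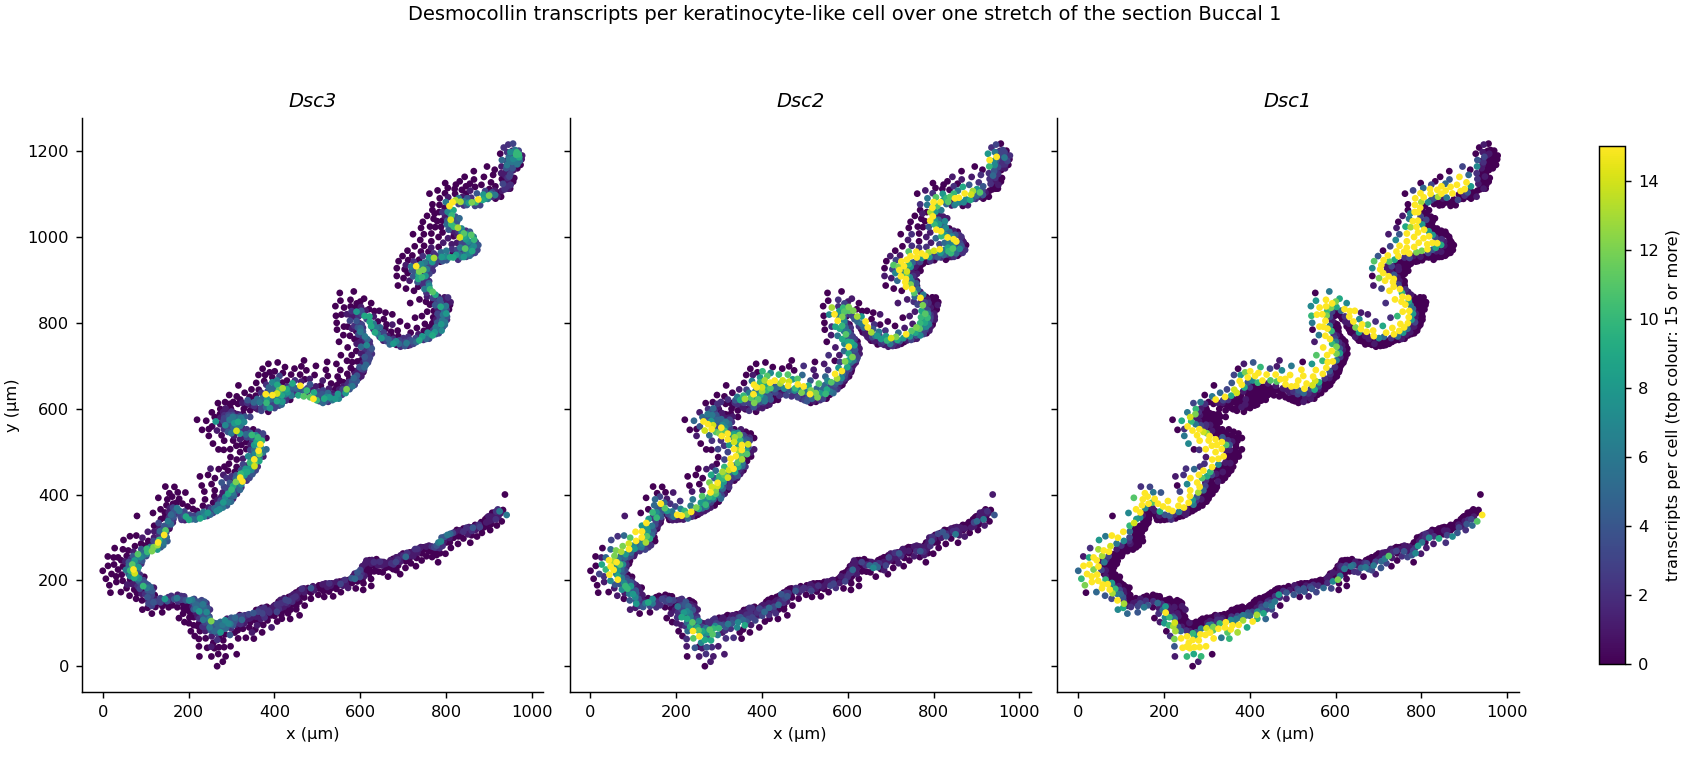
Keratinocyte-like cells over a stretch of the section Buccal 1 at their positions (both axes in µm), coloured by the number of *Dsc3*, *Dsc2* or *Dsc1* transcripts in the cell, with 15 or more at the top colour. *Dsc3* marks the deep band, *Dsc2* a band just above it and *Dsc1* the outer band, with the outermost cells low in *Dsc3* and *Dsc2*.

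The outer zone, over 40 µm from the nearest non-epithelial cell, was tested against the deep zone, within 15 µm, with the section as a block. *Dsc1* rose from 0.337 ± 0.123 to 11.5 ± 5.51 transcripts per cell, *Dsg1a* from 1.04 ± 0.302 to 8.30 ± 3.39 and *Dsg1b* from 0.597 ± 0.180 to 4.10 ± 1.96. *Dsg2* fell from 0.237 ± 0.0847 to 0.0134 ± 0.00724 and *Dsc3* from 2.72 ± 0.531 to 0.462 ± 0.259 transcripts per cell. *Dsg3* was 2.38 ± 0.470 in the deep and 1.99 ± 0.808 in the outer zone, although cells of the outer zone held more transcripts in all (499.9 ± 160.9 against 124.9 ± 20.4 per cell).

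In edgeR's fit across genes, 79.6% of the 269 genes tested passed an adjusted p of 0.05 (34.2% higher and 45.4% lower), and of the 7 members tested 4 were higher and 2 lower (*Dsg4* had too few transcripts). The log2 change was 4.92 ± 0.29 (SE) for *Dsc1*, 2.86 ± 0.23 for *Dsg1a* and 2.61 ± 0.21 for *Dsg1b*, against −4.30 ± 0.31 for *Dsg2* and −2.82 ± 0.31 for *Dsc3*, with adjusted p of at most 7.46e-07. *Dsg3* did not pass (−0.40 ± 0.22, adjusted p = 0.106). *Dsc2* passed at 0.81 ± 0.22 (adjusted p = 0.00321), but library size in place of TMM, which shifts the median of all genes by −1.88, turned it to −1.06 (adjusted p = 0.00172), a call as lower, and took *Dsg3* to −2.27 (adjusted p = 9.44e-06). With library size the split of called genes went from 92 higher and 122 lower to 54 and 195, and with deep cells within 10 µm and outer cells over 60 µm *Dsc2* no longer passed (0.48, adjusted p = 0.108) and *Dsg3* did (−0.96, adjusted p = 0.00164). With transcripts of any quality, too, *Dsc2* did not pass (0.33, adjusted p = 0.155) and *Dsg3* did (−0.86, 0.00317), so the direction of *Dsc2* between the zones is not settled. The median log2 change was 0.81 over the members and −0.52 over all genes tested.

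Buccal epithelium was set against Control skin. Levels over all keratinocyte-like cells are drawn by section in the plot of levels by section, and tissue and slide cannot be told apart here. *Dsc2* stood at 0.442, 0.348 and 0.269 per 1000 in Control 1 to 3 and between 8.99 and 17.0 in the 6 buccal sections (median 12.3). The share of keratinocyte-like cells with at least 1 *Dsc2* transcript was 0.891 to 2.51% in Control skin and 65.0 to 73.1% in buccal mucosa, so the groups lay far apart. The Control levels are not far above those of non-epithelial cells over 50 µm from keratinocytes (0.00725 to 0.245 over all sections), so that the size of a fold over Control is uncertain for this gene.

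**Figure D4:**
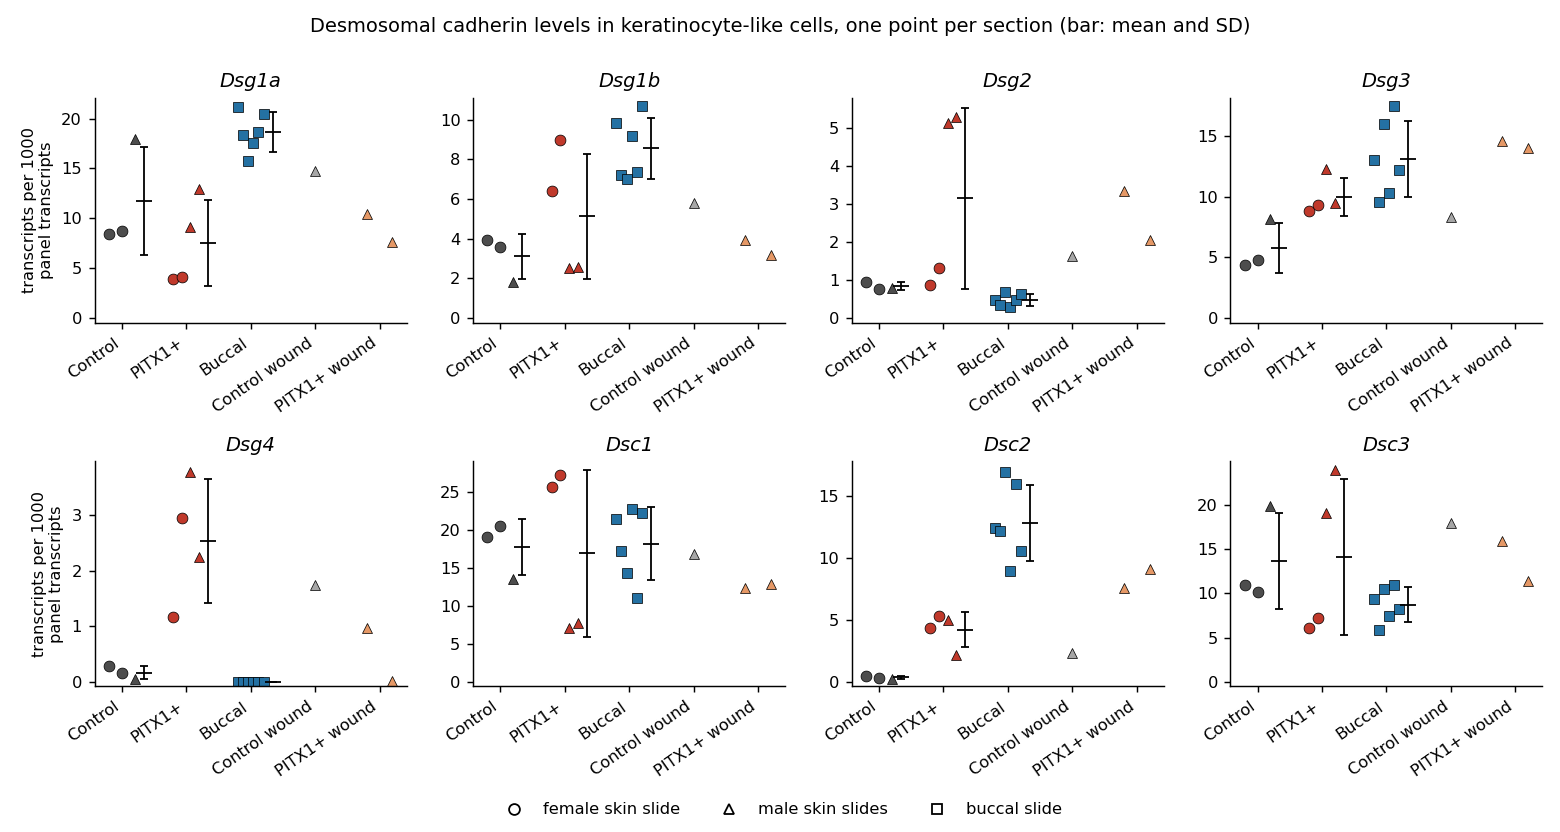
Level of each desmosomal cadherin in keratinocyte-like cells (y axis, transcripts per 1000 panel transcripts), with a point for each section grouped by tissue and condition (x axis), shapes for the slides, and the mean with its SD for groups of 3 or more sections. *Dsc2* in the 4 PITX1+ sections (2.18 to 5.32) lies above the 3 Control sections (0.269 to 0.442) and below the 6 buccal sections (8.99 to 17.0).

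In edgeR's fit 69.8% of 325 genes passed (30.8% higher and 39.1% lower), and of the 8 members 5 were higher and 1 lower. *Dsc2* was higher by 6.52 ± 0.29 on the log2 scale (91.8-fold, adjusted p = 1.21e-08), *Dsg1b* by 2.86 ± 0.29 (adjusted p = 1.04e-05), *Dsg3* by 2.40 ± 0.35 (0.00013) and *Dsg1a* by 1.90 ± 0.38 (0.00108). In transcripts per 1000, however, *Dsg1a* overlapped between the tissues. It stood at 8.45, 8.70 and 17.9 in Control 1 to 3 and at 15.8 to 21.2 in the buccal sections. *Dsc1* passed with TMM (1.43 ± 0.32, adjusted p = 0.0023) but not with library size (0.04, adjusted p = 0.912), and *Dsc3* (0.57 ± 0.33) and *Dsg2* (0.51 ± 0.30) did not pass, and with library size they turned to −0.65 (adjusted p = 0.0434) and −0.80 (0.0414) and passed as lower, while over the nucleus only *Dsg2* passed as higher (0.71, adjusted p = 0.0392). Library size shifts the median of all genes by −1.35 and the split of called genes from 100 higher and 127 lower to 51 and 205. The median log2 change was 1.67 over the members and −0.32 over all genes. Without Control 3 *Dsc3* passed (1.27, adjusted p = 0.000145).

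*Dsg4* was all but absent from buccal epithelium. Its counts were 1 to 3 transcripts in each of the 6 buccal sections and 12 of 5332468 panel transcripts in all, against 105, 42 and 7 in Control 1 to 3. Over the pooled sections its level in Control skin was 87.0 times that in buccal mucosa (95% exact interval for counting error only, 48.4 to 172.0), and 53.2 times (27.9 to 109.9) without Control 1. The Control levels were 0.278, 0.159 and 0.0482 per 1000. Non-epithelial cells over 50 µm from keratinocytes held 0 to 0.269 over all sections (median 0.0220). Control 2 and 3 lay within that range and Control 1 just above it. The size of a fold over Control is therefore uncertain for this gene too. Control 1 to 3 held 2, 0 and 1 hair matrix and shaft-like cells. edgeR, on the TMM scale, gave a log2 change of −4.60 ± 0.52 (24.3-fold lower, adjusted p = 2.3e-05) for buccal against Control, and with transcripts of any quality −0.92 ± 0.32 (adjusted p = 0.0242).

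Within basal-like cells alone the tissues were tested again, with 69.4% of 278 genes past the threshold (32.7% higher and 36.7% lower) and, of the 7 members tested, 5 higher and 1 lower. Basal-like cells were named separately on each slide, so the cells compared may differ in more than tissue. *Dsc2* was at 0.349, 0.225 and 0.191 in Control and 10.5 to 13.4 in buccal sections (log2 change 6.01 ± 0.27, adjusted p = 1.42e-08). *Dsg3* was at 4.87, 5.13 and 8.79 in Control and 19.4 to 23.2 in buccal sections (2.28 ± 0.25, adjusted p = 1.19e-05), and *Dsc3* at 10.2 to 21.8 and 22.0 to 27.3 (1.29 ± 0.26, 0.00111). None of these sections overlapped between the tissues.

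*Dsc1* went the other way in basal-like cells, with 9.32, 13.4 and 3.69 in Control and 0.556 to 1.94 in buccal sections (−2.25 ± 0.43, adjusted p = 0.000764). *Dsg1b* was higher by 1.16 ± 0.27 (adjusted p = 0.00234). *Dsg2* passed narrowly (0.79 ± 0.29, adjusted p = 0.0306) and lost the call with DESeq2 (0.56, adjusted p = 0.101), with library size (0.27, 0.374), with transcripts over the nucleus (0.46, 0.107) and when Control 1 or 2 or Buccal 1, 4 or 7 was left out (0.0553 to 0.14). *Dsg1a* did not pass (0.33 ± 0.24, adjusted p = 0.246) and turned to −0.17 with library size, which moved the split of called genes from 91 higher and 102 lower to 66 and 131 and the median of all genes by −0.51. Without Control 3, and with 30 and 15 clusters, *Dsg1a* passed as higher (0.82, adjusted p = 0.00236, and 1.92, 6.19e-05). The setting with 30 and 15 clusters also leaves out Control 3, since the male slide then had no basal-like cells.

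The effect of PITX1 in unwounded skin was asked first over all keratinocyte-like cells, with the slide as a covariate. *Dsc2* was at 4.37, 5.32, 4.96 and 2.18 per 1000 in PITX1+ 1 to 4 against at most 0.442 in Control, and the groups did not overlap on either slide. It was present in 14.2 to 23.7% of PITX1+ cells. edgeR gave a log2 change of 3.73 ± 0.39 (13.3-fold, adjusted p = 0.00214), 3.99 ± 0.33 on the female slide alone and 3.64 ± 0.60 on the male slide alone. The male slide has 1 Control section, which the test assumes to vary as the PITX1+ sections do, so the call there rests on Control 3. *Dsc2* thus rose also on the slide where *Pitx1* did not separate the sections. Makeup moved with it too: activated-like cells, which had high *Dsc2* in PITX1+ skin, numbered 1, 0 and 0 in Control 1 to 3 and 3454, 2891, 3718 and 421 in PITX1+ 1 to 4, 3.44 to 17.3% of their keratinocyte-like cells. Without the activated-like cells the change of *Dsc2* was 3.08 ± 0.32 (adjusted p = 0.00151), a fold over 1.5 times smaller, and without the follicle kinds as well 3.38 ± 0.40 (0.00273). The follicle kinds left out here and below were outer root sheath and bulge-, upper follicle-, hair matrix and shaft- and also cycling-like cells. Unnamed cells, 19.9 to 31.9% of keratinocyte-like cells in the PITX1+ sections, stayed in.

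*Dsg4* was at 0.278, 0.159 and 0.0482 in Control 1 to 3, against 0 to 0.269 (median 0.0220) in non-epithelial cells over 50 µm from keratinocytes over all sections. It was at 1.17, 2.96, 3.78 and 2.24 in PITX1+ 1 to 4, again without overlap with Control (4.17 ± 0.63, adjusted p = 0.00746). The makeup of the cells moved with it: hair matrix and shaft-like cells, which hold this gene, numbered 2, 0 and 1 in Control 1 to 3 and 1045, 4392, 2795 and 1497 in PITX1+ 1 to 4, 4.69 to 13.7% of their keratinocyte-like cells. Without the follicle kinds *Dsg4* no longer passed (1.16 ± 0.45, adjusted p = 0.0905), and *Dsc2*, with the activated-like cells kept, was at 4.45 ± 0.47 (adjusted p = 0.00363). Fewer cells of a kind and less RNA per cell cannot be told apart in a sum over all keratinocyte-like cells.

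*Dsg1a* was lower within each slide, at 3.96 and 4.14 in PITX1+ 1 and 2 against 8.45 and 8.70 in Control 1 and 2, and at 9.16 and 12.9 in PITX1+ 3 and 4 against 17.9 in Control 3. The sum of *Dsg1a* and its close copy *Dsg1b* did not split the same way on the female slide, at 10.4 and 13.1 in PITX1+ 1 and 2 against 12.4 and 12.3 in Control 1 and 2, while on the male slide it was 11.7 and 15.5 against 19.8. The log2 change of *Dsg1a* was −0.88 ± 0.20 (adjusted p = 0.0191). The sections of the 2 conditions overlap when slides are pooled, and the call was lost without the slide covariate (−0.71, adjusted p = 0.437), without the follicle kinds (−0.86, 0.0714), on the female slide alone (−0.72, 0.068), on the male slide alone (−0.78, 0.205) and when any of Control 1, 2 or 3 or PITX1+ 2 or 3 was left out (−0.95 to −0.75, 0.0552 to 0.122). In all, 3 of 8 members passed, 2 higher and 1 lower, where 32% of 328 genes did (13.7% higher and 18.3% lower), and the median log2 change was 0.82 over the members and −0.03 over all genes.

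The other 5 members did not pass. *Dsg2* (1.28 ± 0.41, adjusted p = 0.0518), *Dsg1b* (0.85 ± 0.30, 0.0669) and *Dsg3* (0.79 ± 0.31, 0.089) lay near the threshold and passed with DESeq2 (0.0232, 0.0235 and 0.0385) and with transcripts of any quality (0.0353, 0.0173 and 0.0202). *Dsg1b* also passed with library size (0.046) and without Control 3 or PITX1+ 3 (0.0127 and 0.0485), *Dsg2* without PITX1+ 1 (0.0332) or the activated-like cells (0.042), and *Dsg3* without Control 3 or PITX1+ 4 (0.0186 and 0.0428) or the follicle kinds (0.0375). *Dsg2* was 0.877 and 1.31 in PITX1+ 1 and 2, near the Control values of 0.780 to 0.964, and 5.14 and 5.30 in PITX1+ 3 and 4. On the male slide alone its log2 change was 2.65, against the single Control section there, whose spread cannot be measured. *Dsg1b* and *Dsg3* passed on the female slide alone (1.40 ± 0.31, adjusted p = 0.00378, and 1.34 ± 0.31, 0.00463). *Dsc3* had a log2 change of −0.30 ± 0.19 (adjusted p = 0.262).

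The effect on *Dsc1* differed between the slides. It was at 25.7 and 27.3 in PITX1+ 1 and 2 against 19.1 and 20.6 in Control 1 and 2, and at 7.07 and 7.77 in PITX1+ 3 and 4 against 13.6 in Control 3. Neither difference passed alone (0.78 ± 0.32, adjusted p = 0.0669, and −0.96 ± 0.41, 0.0967), but their difference did, at −1.97 ± 0.33 for male minus female (adjusted p = 0.0255), where 4.27% of 328 genes passed (1.22% higher and 3.05% lower) and *Dsc1* was the member among them. The male side of this difference rests on Control 3 alone, whose spread is taken from the other sections, and without that section the PITX1+ change of *Dsc1* was 0.74 (adjusted p = 0.049). *Pitx1* was also called in this test (5.35 ± 0.84, adjusted p = 0.0182). Slide and sex are the same variable and cannot be told apart.

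The same contrast was run within single kinds of keratinocyte, which were named on each slide by itself. Basal-like cells were 43.6, 42.7 and 9.71% of keratinocyte-like cells in Control 1 to 3. They were 16.8, 10.8, 1.45 and 5.96% in PITX1+ 1 to 4. A kind is named by the same rule within a slide but may differ between the slides. It can also pool several clusters, whose mix may differ between the sections of a slide. In basal-like cells *Dsc2* was at 1.40, 2.17, 0.760 and 0.671 in PITX1+ 1 to 4 and at 0.191 to 0.349 in Control, and it was the member called (2.73 ± 0.43, adjusted p = 0.012) where 3.74% of 321 genes were (2.8% higher and 0.935% lower). That call was lost without Control 1 (2.78, adjusted p = 0.0833) and without the slide covariate (2.47, 0.197). The lowest buccal section held 10.5 in its basal-like cells.

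*Dsg1a* in basal-like cells split by slide: it was at 1.80 and 1.11 in PITX1+ 1 and 2 against 7.20 and 8.46 in Control 1 and 2, and at 11.6 and 13.8 in PITX1+ 3 and 4 against 13.1 in Control 3. It did not pass (−1.51 ± 0.51, adjusted p = 0.105), but did without Control 3 (−2.46, adjusted p = 2.42e-07), when the comparison rests on the female slide, with DESeq2 (−1.62, 0.00238) and with 30 and 15 clusters (−1.18, 0.00862). With 30 and 15 clusters, too, the comparison rests on the female slide. *Dsg3* was at 11.7 to 14.2 in PITX1+ and 4.87 to 8.79 in Control basal-like cells, without overlap, and missed the threshold (1.15 ± 0.36, adjusted p = 0.0779). It passed with DESeq2 (1.05, adjusted p = 0.0033), over the nucleus only (0.94, 0.0421), with 30 and 15 clusters (adjusted p = 0.00525) and without Control 3 (1.34, 0.00238). *Dsc1* passed as lower without Control 3 (−0.92, adjusted p = 0.0433).

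In upper follicle-like cells, where 14% of 292 genes passed (9.59% higher and 4.45% lower), *Dsc2* (2.23 ± 0.41, adjusted p = 0.0039), *Dsg1b* (1.89 ± 0.39, 0.00785) and *Dsg3* (1.56 ± 0.30, 0.00466) rose. *Dsg3* there was at 8.25, 9.75, 12.8 and 13.9 in PITX1+ 1 to 4 and at 3.43, 3.71 and 6.70 in Control 1 to 3. In outer root sheath and bulge-like cells, where 32.9% of 313 genes passed (16.6% higher and 16.3% lower), *Dsg2* (2.31 ± 0.29, adjusted p = 5.11e-05) and *Dsc2* (1.39 ± 0.36, 0.0112) rose.

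*Dsg2* in outer root sheath and bulge-like cells was at 0.559, 0.696 and 0.852 in Control 1 to 3 and at 2.71, 3.06, 5.997 and 5.07 in PITX1+ 1 to 4, so that it differed without overlap on the female slide too. *Dsg3* there was lower in each PITX1+ section (9.14 to 10.2) than in any Control section (12.48 to 14.6) and did not pass (−0.54 ± 0.23, adjusted p = 0.086). None of the 8 members passed in cornifying-like or in cycling-like cells, where edgeR called 0.66% of 303 genes (all higher) and 1.56% of 320 genes (1.25% higher) and 64 and 57 genes had an unadjusted p under 0.05.

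The shares of each member in the desmoglein or desmocollin transcripts do not depend on the scaling. *Dsc2* made up 1.45, 1.12 and 0.794% of desmocollin transcripts in Control 1 to 3, 12.1, 13.3, 15.9 and 6.43% in PITX1+ 1 to 4, and 22.9 to 42.0% in buccal sections, 3 groups without overlap. *Dsg1a* made up 52.5 ± 8.58% of desmoglein transcripts in Control and 25.4 ± 10.9% in PITX1+ skin, and *Dsg3* 26.4 ± 2.05% and 35.7 ± 5.23%. *Dsc3* made up 42.5 ± 14.3% of desmocollin transcripts in Control and 21.9 ± 4.47% in buccal mucosa.

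Of 24 comparisons of a share between 2 of the 3 groups, 12 had no overlap between the groups. Each of these reached the smallest two-sided exact permutation p that its numbers of sections allow (0.0571 for PITX1+ with Control, 0.0238 for buccal with Control, 0.00952 for buccal with PITX1+). After Benjamini-Hochberg adjustment over the 24, these became 0.114, 0.0714 and 0.0571, and none passed 0.05. The comparisons share sections with each other. The shares of a pool also add up to the whole, so a larger share of any member lowers others. These shares are defined within the desmogleins and desmocollins alone, so no count over all genes stands beside this one.

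The split of desmoglein 1 between *Dsg1a* and *Dsg1b* differed widely between sections. *Dsg1a* held 68.2 and 70.9% of their sum in Control 1 and 2 and 38.2 and 31.5% in PITX1+ 1 and 2, on the female slide. On the male slide it held 90.7% in Control 3 and 78.6 and 83.2% in PITX1+ 3 and 4. The wounds had 71.7, 72.6 and 70.7%, and the buccal sections 65.6 to 71.8%.

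**Figure D5:**
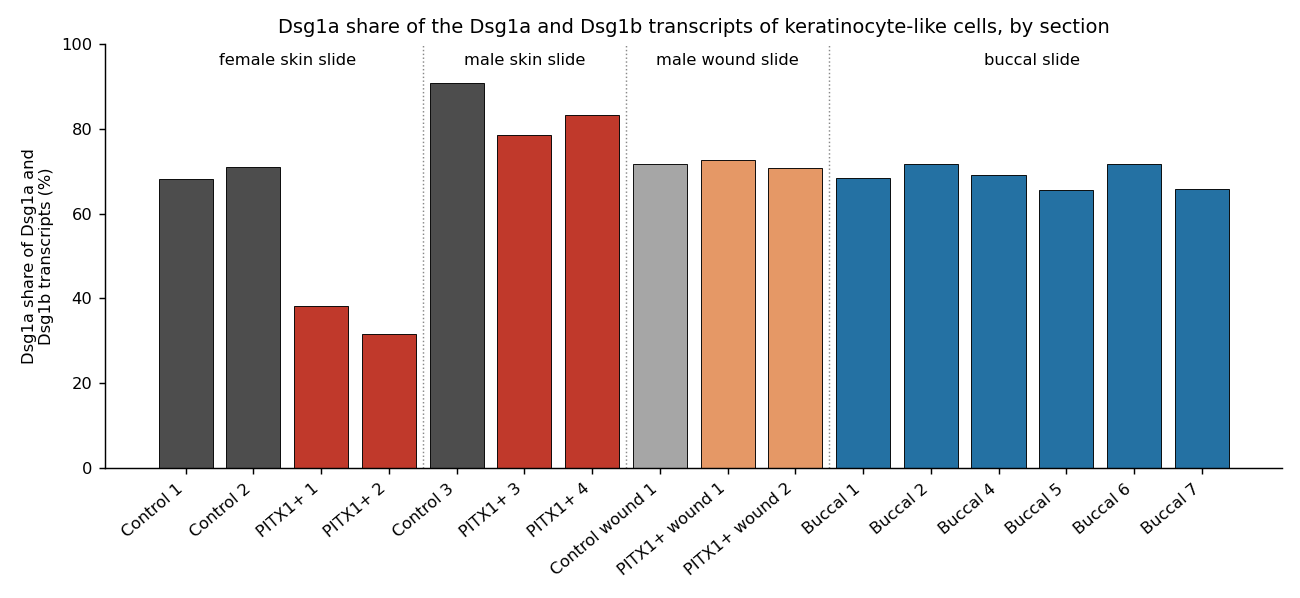
Share of *Dsg1a* in the sum of *Dsg1a* and *Dsg1b* transcripts of keratinocyte-like cells, in percent (y axis, from 0), with a bar for each section, coloured by group and set out by slide. The PITX1+ sections of the female slide (38.2 and 31.5%) stand below all others, and how well the probes tell these close copies apart is not known.

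The split was also read within single kinds. Over the kinds with at least 100 *Dsg1a* and *Dsg1b* transcripts, *Dsg1a* held 28.5 to 49.0% in PITX1+ 1 and 24.8 to 47.9% in PITX1+ 2, against 60.8 to 71.5% and 67.5 to 72.9% in Control 1 and 2, so the kinds of the 2 conditions did not overlap on the female slide. On the male slide the kinds ran from 86.9 to 91.4% in Control 3 from 71.9 to 95.3% in PITX1+ 3 and from 73.9 to 88.6% in PITX1+ 4. Sebaceous-like cells had lower shares, 8.92 to 17.4% on the female and 45.9 to 70.0% on the male slide.

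Buccal epithelium was also set against PITX1+ skin, in a comparison that shares its sections with those above and in which tissue and slide cannot be told apart. Here 60.4% of 323 genes and 7 of 8 members passed. *Dsc2* remained higher in buccal mucosa, by 2.72 ± 0.33 (6.57-fold, adjusted p = 2.11e-05), and *Dsg1a* by 2.48 ± 0.37 (0.000124). *Dsg2*, at 0.284 to 0.685 in buccal sections, was lower by 1.55 ± 0.46 on the log2 scale (adjusted p = 0.0109).

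*Dsg1b* (1.85 ± 0.42, adjusted p = 0.00246), *Dsg3* (1.49 ± 0.22, 0.00011) and *Dsc1* (1.23 ± 0.48, 0.0435) passed as higher with TMM but not with library size (0.74, 0.39 and 0.10, adjusted p = 0.0936, 0.178 and 0.817). *Dsc1* also lost its call when PITX1+ 3 or 4 or Buccal 1, 2, 5 or 7 was left out (adjusted p = 0.073 to 0.101), over the nucleus only (0.54, 0.314), with transcripts of any quality (0.98, 0.104) and without the follicle kinds (1.01, 0.118). *Dsc3* did not pass and its direction turned with the scaling (0.44 ± 0.35, and −0.69 with library size). The scaling moved the median of all genes by −1.12 and the split of calls from 74 higher and 121 lower to 37 and 193. *Dsg4* was 12 transcripts against 22163 in PITX1+ skin (−8.89 ± 0.45, adjusted p = 2.97e-08, and −4.58 with transcripts of any quality).

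In the wounds, on day 4, *Dsc2* was at 2.31 per 1000 in the Control wound (present in 13.4% of keratinocyte-like cells) and at 7.58 and 9.10 in PITX1+ wounds 1 and 2, against 0.269 in Control 3 and 4.96 and 2.18 in PITX1+ 3 and 4, the unwounded male sections. Each wound thus lay above the unwounded sections of its condition. *Dsg3* was at 8.31, 14.6 and 14.1 in the 3 wounds against 8.13, 12.3 and 9.44 in the unwounded male sections. *Dsg1b* was at 5.81, 3.95 and 3.16 against 1.84, 2.50 and 2.60.

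edgeR's test of wounded against unwounded male skin, with the condition as covariate, called none of the 8 members and 4.89% of 327 genes (4.59% higher), while 83 genes had an unadjusted p under 0.05. *Dsc2* had the largest increase of the members (log2 change 2.02 ± 0.53, adjusted p = 0.0911), then *Dsg1b* (1.07 ± 0.32, 0.108) and *Dsc1* (0.83 ± 0.29, 0.146). DESeq2 called *Dsc2* (1.99, adjusted p = 0.00345) and *Dsg1b* (1.01, 0.0489), and *Dsc2* also passed in edgeR without PITX1+ 3 (2.62, adjusted p = 0.0426) and *Dsc1* without Control 3 (1.17, 0.0417). Wounding and slide cannot be told apart, and the median log2 change was 0.2 over the members and −0.1 over all genes.

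*Dsg4* was at 1.75 in the Control wound and at 0.969 and 0.0116 in the PITX1+ wounds, with 810, 557 and 13 hair matrix and shaft-like cells in them, and the section with the fewest such cells had the lowest *Dsg4*. *Dsg2* was at 1.63, 3.34 and 2.05. In the unwounded Control 3 and PITX1+ 3 and 4, *Dsg4* was at 0.0482, 3.78 and 2.24 and *Dsg2* at 0.785, 5.14 and 5.30. Both genes were thus higher in the Control wound and lower in both PITX1+ wounds than in the unwounded sections of the condition. The test fits 1 change for both conditions, so its estimates average opposite directions, and neither gene passed (−0.90 ± 2.40 and −0.11 ± 0.46).

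By kind, *Dsc2* in basal-like cells was 2.04 in the Control wound (95% exact interval for counting error only, 1.73 to 2.38) and 4.19 (3.89 to 4.51) and 5.48 (5.13 to 5.86) in the PITX1+ wounds, above the 0.191 of Control 3 and the 0.760 and 0.671 of PITX1+ 3 and 4. *Dsg1a* in basal-like cells was 5.41, 3.42 and 1.89 in the wounds against 13.1, 11.6 and 13.8 in the unwounded male sections. Basal-like cells were named separately on the wound slide, so the cells compared may differ in more than wounding. Activated-like cells had *Dsc2* at 13.98, 18.3 and 19.6 in the wounds, the highest of the named kinds of keratinocyte-like cell in each wound. In the Control wound these were 71 cells. Unnamed cells, 19.3% of keratinocyte-like cells in the Control wound and 43.95 and 47.9% in PITX1+ wounds 1 and 2, are outside this ranking.

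A cluster of the wound slide led by *Mmp9*, *Igfbp3* and *Lama3*, singled out after its values were seen, had low levels of the cadherins of the upper layers. It held 64, 234 and 698 cells in the Control wound and PITX1+ wounds 1 and 2. There *Dsc1* was at 0.571, 0.256 and 0.0914 per 1000 and *Dsg1a* at 0.897, 0.588 and 0.407, while *Dsg3* was at 16.8, 13.6 and 14.8 and *Dsc2* at 7.01, 7.33 and 9.05. *Mmp9* encodes a matrix-degrading protease and *Lama3* a chain of the basement membrane protein laminin-332.

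In another cluster of the wound slide, led by the cornification genes *Hrnr*, *Flg* and *Lor*, *Dsc1* was at 33.2, 46.3 and 45.02 in the 3 wounds and *Dsg2* at 0.00900, 0.0960 and 0.0143.

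Other junction genes of the panel were read from the same fits. Of 8 such genes (*Cdh3*, *Cdh5*, *Cdh11*, *Gja1*, *Nectin2*, *Itga6*, *Itgb4* and *Col17a1*), 4 passed in PITX1+ against Control keratinocyte-like cells, where 32% of all genes did, *Gja1*, the gap junction gene for connexin 43 (2.50 ± 0.23, adjusted p = 0.00131), and *Cdh3* (1.28 ± 0.24, 0.0123) as higher, and the hemidesmosome genes *Col17a1* (−2.09 ± 0.26, 0.00364) and *Itgb4* (−0.68 ± 0.17, 0.0263) as lower. In basal-like cells edgeR called none of the 8 (90 of all genes had an unadjusted p under 0.05), with *Col17a1* at −0.39 (adjusted p = 0.45) and *Itgb4* at −0.05 (0.942). *Col17a1*, *Itga6* and *Itgb4* are among the markers that name this kind, so the test cannot decide whether basal cells keep them. *Col17a1* passed as lower in outer root sheath and bulge-like cells (−2.54, adjusted p = 0.000124) and in upper follicle-like cells (−1.31, 0.00912). *Gja1* passed as higher in both (2.57, 5.11e-05, and 2.97, 0.000384) and in cycling-like cells (3.37, 0.0145). *Cdh3* passed as higher in outer root sheath and bulge-like cells (1.08, 0.00523). From the deep to the outer buccal zone 1 of the 8 was higher and 5 were lower, where 34.2% and 45.4% of all genes were, with *Itgb4*, *Itga6* and *Col17a1* down by 4.41 to 5.07 on the log2 scale. In the wounds none of the 8 passed.

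The share of transcripts over the nucleus in keratinocyte-like cells, a description that mixes the gene with the kinds of cell that carry it, was 22.6 to 55.5% over all genes in the 16 sections (median 42.5%). Its median was 60.4% for *Dsg2*, 53.9% for *Dsg3*, 51.9% for *Dsc3*, 43.3% for *Dsc2*, 41.4% for *Dsg1b*, 40.5% for *Dsg1a* and 31.9% for *Dsc1*. *Dsg4*, over the 9 sections with enough transcripts, had 57.0%. Within a section *Dsg2*, *Dsg3* and *Dsc3* lay above the share of all genes in 16 of 16 sections, by a median of 19.4, 13.7 and 11.99 points. *Dsc1* lay below it in 16 of 16, by −7.26 points at the median, while *Dsg1a* and *Dsg1b* were close to it (−1.81 and −0.665 points).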

How the data were processed

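Xenium output was held for 4 slides (male and female unwounded skin, buccal mucosa, wounded male skin). The deposited tables give raw counts of transcripts and control calls per cell, and for each transcript a quality score, a position in µm, a nucleus mark and a cell, quantities of other units. The software version and segmentation settings are not given in the sources used here. Outlines were not used.

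Counting per cell used transcripts of 328 genes that scored 20 or more. Sections were joined within 100 µm (wounds 200 µm). Cells with at least 10 transcripts were clustered without the 8 members (k-means, 45 clusters on 40 principal components, then 25 clusters of keratinocyte-like cells per slide, scikit-learn 1.9.0). Clusters were named by the markers among their 10 leading genes. Doublets were not removed. Counts summed per section and kind (at least 50 cells) were tested with edgeR 4.0.16 (filterByExpr, TMM, glmQLFit, glmQLFTest, Benjamini-Hochberg over all genes tested, threshold 0.05) and DESeq2 1.42.0 as an alternative, in R 4.3.3, and the steps were tested on simulated data. Shares were compared with exact permutation tests (scipy 1.17.1). The members and gene lists were chosen with earlier results of these data known, and the rule for naming kinds was set after clusters were seen. Genes named are the members, *Pitx1*, the junction genes past the threshold, the 3 genes most like each member and the leading genes of clusters singled out. No sequences are given. Results of 2 clusters singled out are not reported here.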

Additional observations from a re-analysis of the deposited data

Results flagged for a closer look

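The PITX1+ effect on *Dsc1* in keratinocyte-like cells differed between the male and the female slide by −1.97 on the log2 scale (edgeR interaction term, adjusted p = 0.0255). It was higher in both PITX1+ sections than in both Control sections of the female slide and lower in both than in the Control section of the male slide. The male side of the difference rests on that single Control section. Of 34 groups of 4 to 10 sections examined for a section standing apart from the rest, none had one.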

How the results depend on the processing

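Of 1330 values of members recomputed under another setting, 1211 kept their direction and their side of the threshold, 37 gained and 37 lost a call and 45 turned their sign. In PITX1+ against Control keratinocyte-like cells the 105 genes called became 169 with DESeq2, 33 with no slide covariate and 38 to 126 with a section left out (48 without Control 1, 41 without Control 2, 38 without PITX1+ 2). *Dsc1* there turned to 0.14 over the nucleus only, 0.15 with transcripts of any quality, 0.06 with no slide covariate and 0.78 with the male slide left out, with −0.40 to 0.74 over single sections, and *Dsc3* to 0.03 with the female slide left out. In basal-like cells the 12 genes called became 80 with DESeq2, 29 over the nucleus, 24 with at least 20 transcripts per cell, 100 with 30 and 15 clusters (female slide only, since the male slide then had no basal-like cells), 0 with no slide covariate and 0 to 96 with a section left out (0 without Control 1, 7 without PITX1+ 1, 4 without PITX1+ 2 or 3, 96 without Control 3). *Dsg1b* turned to 0.73 and *Dsc1* to 0.29 with 30 and 15 clusters, *Dsc1* to 0.25 over the nucleus, and *Dsc3* to −0.12 with library size, −0.13 with DESeq2, −0.06 over the nucleus and −0.01 with at least 20 transcripts per cell. Over single sections *Dsg4* ran from −0.71 to 0.44 and *Dsc3* from −0.29 to 0.14. With library size, *Dsg2* turned to −0.80 and *Dsc3* to −0.65 for buccal against Control, *Dsg1a* to −0.17 in their basal-like cells, *Dsc3* to −0.69 for buccal against PITX1+, and *Dsc2* to −1.06 for the outer zone. In the wounds the 16 genes called became 6 with library size, 72 with DESeq2, 9 over the nucleus, 7 with at least 20 transcripts per cell and 5 to 54 with a section left out (54 without Control 3, 9 without PITX1+ 4, 6 without the Control wound or PITX1+ wound 1, 5 without PITX1+ wound 2), and *Dsg1a* ran from −0.22 to 0.10, *Dsg2* from −0.66 to 0.23 and *Dsg4* from −2.40 to 1.42. DESeq2 moved the split of called genes from 9 higher and 3 lower to 37 and 43 in basal-like cells, where library size gave 5 and 3, and from 15 and 1 to 53 and 19 in the wounds. Among shares, in points, with a section left out, *Dsg1b* ran from −0.99 to 7.92 and *Dsc3* from −10.32 to 7.63 for PITX1+ minus Control, and *Dsg1b* from −2.97 to 5.72 and *Dsc1* from −8.39 to 7.74 for buccal minus PITX1+, where *Dsg3* turned to 4.27 over the nucleus. Except for the clusters, the cause was not tested. The slides left out, the follicle kinds or activated-like cells left out and the *Dsg4* ratio without single Control sections were chosen after seeing the data. No paired analysis was possible because each labelled sample is 1 slide and no section carries a replicate number that pairs it with another section, so that the slide entered as a covariate and the section was a block for the zones of the buccal epithelium alone. The Control sections, with the fewest transcripts, limit what can be seen in rare kinds and in *Dsg4*.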
